A study of Mus musculus with 4 samples.

Results

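Cytosolic ribosomal protein genes were read across the cell states of mouse fetal liver progenitors with and without an enhancer of Gata2. Members were all symbols of the deposited gene list starting with Rpl or Rps, without the 6 pseudogene symbols that contain -ps and without the 2 Rps6k kinase genes. This rule took 85 of the 3624 genes measured, 51 with an Rpl and 34 with an Rps symbol. No measured value entered the rule.

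Droplet-based sequencing of single-cell RNA (10x Genomics) profiled progenitors sorted as Lin-Sca-cKit+Cd34+, that is without lineage markers and Sca1 and with Kit and CD34, from C57Bl/6J fetal liver at E14.5. The wild type gave libraries F and I. Libraries A and B are from embryos of genotype Gata2-77-/-, which lack the -77 enhancer of Gata2 on both alleles, so n = 2 per genotype. Nothing was added to the animals or cells per the labels, and the letters are the deposited ones, tied to no sample number. If the embryos of a genotype were not separate animals, each p-value reflects only how these libraries vary, which may be technical.

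The ribosome reads messenger RNA in its small (40S) subunit and joins amino acids in its large (60S) subunit. Each subunit is built from ribosomal RNA and one copy of most of these proteins, so cells make the proteins in matched amounts. Most of their messages start with a run of pyrimidines, the TOP tract, through which translation of the whole set follows nutrient and growth signals. Loss of 1 copy of several of these genes causes Diamond-Blackfan anemia, a failure of red cell production, and loss of RPS14 is a cause of the anemia of 5q- syndrome.

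The start sites show how alike the members are at the place where the TOP tract lies. RefSeq start windows (GRCm38.p6) matched 64 of the 85 members. A tract was counted where a C followed by at least 4 bases, each C or T, began within 2 bases of the annotated start on the strand of the gene. It was present in 22 of 64 members (34.4%) and in 10.6% of all 27025 genes with such a window. At the exact start base the shares were 21.9% and 3.01%, and within 5 bases they were 46.9% and 21.2%. Several annotated starts were listed for 9 members, and whether the annotated starts are those used in these cells was not tested. The allowance of 2 bases was chosen after the windows had been seen. The windows below hold 15 bases before the start and 15 from it, 5′ to 3′, and capitals mark the tract. They are shown for members whose values are described below, 6 with a tract and 5 without one.
Rpl15: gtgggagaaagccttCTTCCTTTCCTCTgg
Rpl35: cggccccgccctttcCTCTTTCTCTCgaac
Rpl38: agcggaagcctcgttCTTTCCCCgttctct
Rps6: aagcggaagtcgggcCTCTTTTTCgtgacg
Rps27: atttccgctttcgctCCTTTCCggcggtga
Rps27rt: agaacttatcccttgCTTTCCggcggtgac
Rpl10: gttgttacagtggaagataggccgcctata
Rpl36a: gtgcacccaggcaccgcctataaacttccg
Rpl36al: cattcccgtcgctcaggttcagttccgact
Rpl39: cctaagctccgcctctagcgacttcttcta
Rps4x: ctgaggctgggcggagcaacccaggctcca
The longest of these tracts, 13 bases, is that of Rpl15 (chr14:18270972-18271001, - strand). The Rps27 window lies at chr3:90213634-90213663 (- strand), the Rps27rt window at chr9:114982725-114982754 (- strand) and the Rpl36al window at chr12:69184053-69184082 (- strand). No match says only that these letters are not in this window. In the class comparison described below, that of monocyte-like against HSPC-like cells, the median log2 fold change was -0.18 over 22 members with a tract and -0.16 over 42 without.

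The libraries held 1938 to 3042 cells and 16837863 to 40117680 UMIs (unique molecular identifiers, 1 per captured molecule). Median UMIs per cell were 12827 in F, 17438 in I, 7492 in A and 7087 in B, so depth moved with genotype and its part in the results was tested only for the shares, by thinning. Of the gate's genes, Kit was at 39.6 to 45.2 CPM and Cd34 at 186 to 333 CPM in the 4 libraries, and Ly6a, which encodes Sca1, was not among the genes measured. CPM here is UMIs of a gene per 1000000 UMIs of the measured genes. Gata2 was at 26.3 and 23.2 CPM in F and I, against 7.48 and 6.73 CPM in A and B. Library B stood apart from the other 3 in genes with short transcripts, members or not, as described below. No pair of cells held identical counts, and cell barcodes were not analysed here.

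Ribosomal protein genes took 36.9% of all UMIs in F, 35.6% in I, 37.0% in A and 34.3% in B. Of the 85 members, 77 averaged over 1000 CPM. Among the highest mean levels was that of Rpl13a of the 60S subunit. Rpl13a (ENSMUSG00000074129.14) was at 8447, 7713, 8191 and 8152 CPM in F, I, A and B. UMI counts were not divided by transcript length, and the share of molecules captured may differ between genes, so levels of different genes are given as found.

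The 3 lowest members were Rps27rt at 62.6 to 114 CPM, Rpl6l at 81.2 to 105 CPM and Rpl39l at 0.698 to 3.61 CPM. Rps27rt is an intronless copy of Rps27. Rpl6l is annotated as a processed pseudogene in GENCODE M21, the only member that is not protein-coding there. Rpl39l, a copy of Rpl39 known from the testis, was close to the detection limit. Rpl7l1 and Rps19bp1, which are a relative of Rpl7 and a partner of Rps19 and not subunits of the standard ribosome, were at 144 to 170 and 107 to 120 CPM. Of the subunit proteins, Rpl27 was the lowest at 625 to 818 CPM.

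The stalk proteins, which bring elongation factors to the ribosome, differed in level. Rplp0 was at 6289 to 6947 CPM, Rplp1 at 5578 to 6845 CPM and Rplp2 at 2917 to 3882 CPM. Rpl5 and Rpl11, which join 5S ribosomal RNA in one particle and can bind Mdm2, were at 2633 to 2794 and 5060 to 5390 CPM. Ranges of Rpl5 and Rpl11 over the 4 libraries were narrow. GENCODE M21 names at least 1 pseudogene (-ps symbol) for 56 of the 85 members, 24 each for Rpl31 and Rps12, so the counts of these genes could be split with near-identical copies.

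Library B was the lowest of the 4 libraries for 47 of 85 members (55.3%), against 14.2% of all genes tested. These were mostly members with short transcripts. Rps27, a 40S protein with a transcript of 345 bases, was at 1491, 1591, 1391 and 981 CPM in F, I, A and B. Rps29 (390 bases) was at 3009, 3603, 2731 and 2123 CPM, and Rpl38 (364 bases) at 1318, 1542, 1335 and 995 CPM. For each of these 3 genes B lay below the other 3 libraries.

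Of 15 members with a transcript under 500 bases, 14 were lowest in B, and their median log2 ratio of B to the mean of the other libraries was -0.40. Of 41 other genes of that length, 36 were lowest in B, with a median of -0.45. From 1000 to under 2000 bases the medians were -0.01 over 16 members and 0.13 over 1197 other genes. The ratio of A has the low values of B in its divisor, so it does not show how A itself varies with length. Its median log2 was 0.13 for members under 500 bases and 0.02 from 1000 to under 2000 bases. Across 84 members with a length the Spearman correlation of transcript length with the ratio of B was 0.58 (genes of the same libraries, given as a description). It was -0.40 with the ratio of A, whose divisor includes B. With the ratio of I to F it was -0.40 too, so the members varied with length in the wild-type pair as well. Over 3407 other genes the correlations were 0.008 with the ratio of B, -0.08 with that of A and 0.15 with that of I to F. The low level of transcripts under 500 bases in B was thus not particular to ribosomal protein genes, while the correlations over all lengths differed between members and other genes. The cause of either was not tested.

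**Figure D1:**
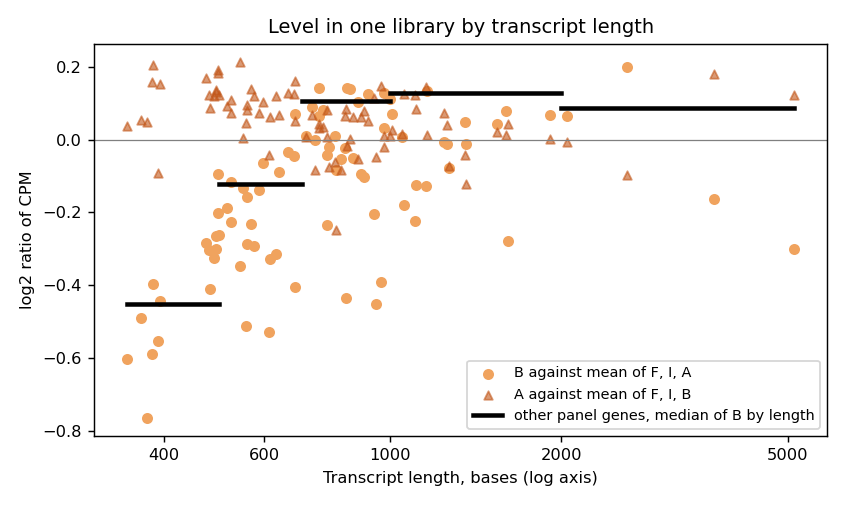
Log2 ratio of the CPM in 1 library to the mean CPM of the other 3 (vertical axis) against transcript length in bases (log axis), for 83 members without Rpl39l; circles stand for B, triangles for A, and black lines for the median of B over other genes in each length range. Circles of short transcripts lie below 0. Triangles do not follow them, but the mean they are set against includes B.

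Members summed by length showed the same split. The 42 shorter members (345 to 761 bases) took 15.4%, 15.2%, 15.8% and 13.9% of UMIs in F, I, A and B. The 42 longer ones (774 to 5130 bases) took 21.5%, 20.4%, 21.2% and 20.4%. Among shorter members B alone was low, while among longer ones B and I were level.

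The comparison of genotypes over all cells found little difference in the ribosomal protein genes. The summed share averaged 36.2% ± 0.905 for wild-type libraries and 35.6% ± 1.91 for enhancer-deleted ones (SD, n = 2 each). The difference of -0.64 percentage points was within the spread of the libraries (exact two-sided permutation p = 1, where 4 libraries allow no p below 0.333). Without library B it was 0.71.

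In edgeR's quasi-likelihood test 1 of 85 members passed an adjusted p of 0.05, against 8.86% of the 3622 genes tested (321 genes, 100 higher and 221 lower). That member was the pseudogene Rpl6l. It was at 105 and 102 CPM in F and I, against 83.8 and 81.2 CPM in A and B, without overlap (log2 fold change -0.38, SE 0.07, adjusted p = 0.0322). It did not pass without any 1 of the 4 libraries, where the adjusted p was 0.0575 to 0.149, or with the mix of cell classes held equal (adjusted p = 0.182). The median log2 fold change was -0.09 over the members and 0.00 over all genes, and without library B the members' median was 0.02. Of 85 members, 65 were negative and 5 had an unadjusted p under 0.05. The DESeq2 Wald test called 5 members, all lower.

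The libraries of the genotypes did not overlap in CPM for 26 members (30.6%), 14 lower and 12 higher in CPM, against 54.1% of all genes. The 4 most negative values belonged to Rps27rt (-0.51), Rps29 (-0.49), Rpl39 (-0.44) and Rps27 (-0.42), of which none passed (edgeR adjusted p 0.157 to 0.249). The most positive were Rpl39l (1.01, SE 0.74, on 0.698 to 3.61 CPM), Rps9 (0.09), Rpl7a (0.08) and Rpl10a (0.07), and none of these passed either. Rpl39 was at 2614, 2770, 2320 and 1781 CPM in F, I, A and B.

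By role, the medians were -0.09 over 31 40S members, -0.10 over 46 60S members including the stalk, and -0.17 over the 20 genes known from Diamond-Blackfan anemia or 5q- syndrome, with no member past the threshold in these groups. Rps19, the gene most often mutated in Diamond-Blackfan anemia, was at 7696, 7335, 7551 and 6391 CPM (-0.16, SE 0.15). Rps14 of the 5q- region was at 6622, 6264, 6871 and 6296 CPM (-0.02, SE 0.13). Rpl11 was at 5254, 5060, 5390 and 5153 CPM (-0.02, SE 0.11). In these 3 genes the libraries of the genotypes overlapped.

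All 6 pseudogene symbols left out by the rule were negative (-0.52 to -0.23), and Rpl9-ps6 and Rpl10-ps3 passed. Rpl9-ps6 was at 103 and 99.4 CPM in F and I, against 76.1 and 70.1 CPM in A and B (-0.52, SE 0.08, edgeR adjusted p = 0.0227). Rpl10-ps3 was at 51.6, 57.4, 42.0 and 41.3 CPM (-0.44, SE 0.08, edgeR adjusted p = 0.0272). Within HSPC-like cells neither Rpl9-ps6 nor Rpl10-ps3 passed (edgeR adjusted p = 0.0604 and 0.258). Their parent genes Rpl9 (-0.12, SE 0.10) and Rpl10 (-0.09, SE 0.10) did not pass.

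Cell classes were built without the 85 members, so that the members could be compared between them. Clusters were named from marker genes. The edgeR class fit and interaction fit each took their spread from all class sums together, which come from the same libraries. Their p-values thus reflect how classes vary within these libraries, and can be smaller than an exact test over libraries allows. HSPC-like cells (hematopoietic stem and progenitor cells, clusters marked by genes such as Hlf and Meis1) numbered 444 to 724 per library, monocyte-like cells 259 to 535 and neutrophil-like cells 34 to 971. Unnamed clusters are given by number: cluster 0 was led by mitotic genes such as Kpna2 and Ccnb1, cluster 1 by Hsph1, Cad and F13a1, cluster 4 by Ccne1 and Fscn1. A class was used in a library where it held at least 50 cells.

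Ribosomal protein genes took the largest share of UMIs in HSPC-like cells among the classes named in all libraries. The share there was 39.7% in F, 39.1% in I, 39.3% in A and 36.5% in B. In monocyte-like cells it was 34.2%, 32.8%, 37.0% and 34.0%, lower than in HSPC-like cells of each library (mean difference -4.16 percentage points, SD 2.04, 4 of 4 libraries). The exact two-sided sign-flip p was 0.125, the smallest that 4 libraries allow. Neutrophil-like cells had 36.8%, 35.8% and 35.6% in F, I and A. Basophil/mast-like cells had 38.0% and 37.1% in F and I.

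Within the HSPC-like class the share was not uniform. Cluster 7 had the highest share of any cluster in each library, 42.5%, 42.6%, 43.3% and 39.5% in F, I, A and B. Its median UMIs per cell were 10278, 11315.5, 5592.5 and 5426.5, against 15518.5, 18746, 10319 and 9905.5 in cluster 2. The part of depth in the share of cluster 7 was not tested. Clusters 2 and 3 ranged from 34.7% to 38.3%. Erythroid-like cells had 31.2%, 22.9%, 33.6% and 20.4%, from 51, 37, 3 and 3 cells, and entered no test. In cells led by globin messages every other gene's share is lower: without the globin genes in the total, the share of erythroid-like cells in F and I was 37.5% and 33.8%.

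**Figure D2:**
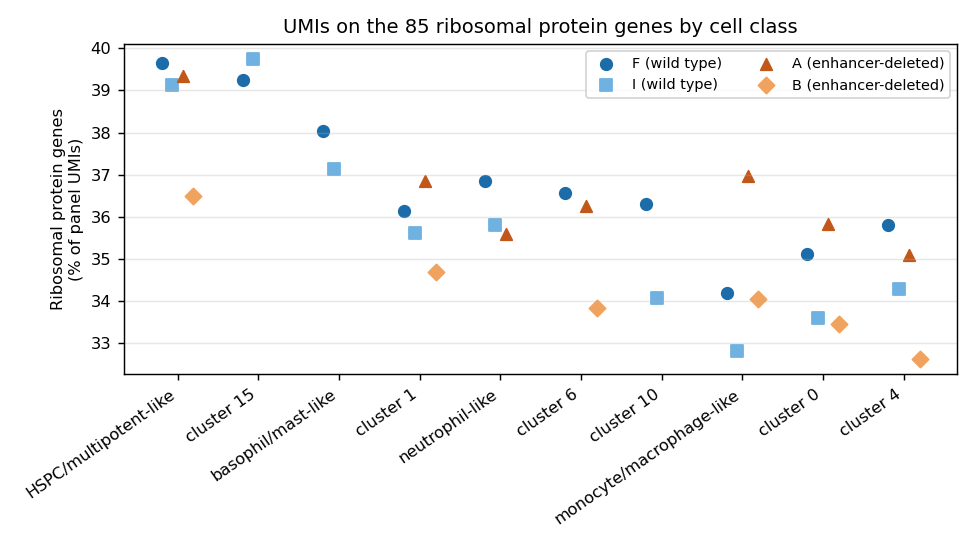
Share of panel UMIs on the 85 ribosomal protein genes (vertical axis, percent, not from 0) in each class and library; each point is 1 library with at least 50 cells of the class. HSPC-like cells lie highest among classes with all 4 libraries, and library B lies lowest in most classes where it has a point.

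Gene by gene, 83 of 85 members differed between classes in the joint test, where 95.8% of 3610 genes did. In monocyte-like against HSPC-like cells, 64 members were lower and 2 higher, against 65.3% of all genes called. The members' median was -0.17 and that of all genes -0.03. Rpl36a was among those that fell most (-0.33, SE 0.05, edgeR adjusted p = 5.9e-06), from 2704, 2967, 2669 and 2089 CPM in HSPC-like cells of F, I, A and B to 2145, 2123, 2349 and 1745 CPM. It was lower in the monocyte-like cells of each library. Rpl17 (-0.33), Rpl29 (-0.31), Rpl15 (-0.28), Rpl28 (-0.28), Rps7 (-0.28) and Rpl36 (-0.27) fell too, all with adjusted p under the threshold. Without library I 40 members were lower, and with each library left out 40 to 67 were.

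Of the stalk proteins all 3 were lower in monocyte-like cells, while neither Rpl5 nor Rpl11 passed. Of the 20 Diamond-Blackfan and 5q- genes 16 were lower and none higher. The members that rose were Rpl36al (0.17, SE 0.03, edgeR adjusted p = 0.000101) and Rpl10 (0.15, SE 0.05, edgeR adjusted p = 0.00711), the latter not without library B (adjusted p = 0.0594). Rpl10, a 60S protein added late in subunit assembly, was at 4875, 4512, 4480 and 4713 CPM in HSPC-like cells and at 5150, 4898, 5306 and 5454 CPM in monocyte-like cells. It was higher in the monocyte-like cells of each library.

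In neutrophil-like against HSPC-like cells 13 members were higher and 8 lower, against 62.0% of all genes called, and the members' median was 0.01. The highest were Rps27rt (0.39), Rps26 (0.39), Rpl36al (0.39), Rpl10 (0.29), Rps21 (0.18), Rps25 (0.17), Rpl6l (0.17) and Rpl39 (0.17). The lower ones included Rpl15 (-0.25), Rps27l (-0.15), Rps6 (-0.13), Rpl7 (-0.12) and Rpl24 (-0.12). Without library F, 5 members were higher and 1 lower.

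In basophil/mast-like cells, used in the wild-type libraries F and I only, Rpl10 (0.17) and Rpl36al (0.16) rose. Rpl24 (-0.14) fell there, against 24.5% of all genes called. Cluster 0 had 72 members lower and 2 higher, Rps27l (0.15) and Rpl36al (0.13), against 57.4%. Cluster 4 had 76 lower and 2 higher, Rps27l (0.17) and Rps19bp1 (0.16), against 54.1%. Rpl17 fell in both (-0.37 in cluster 0 and -0.33 in cluster 4). Cluster 6, used in F, A and B, was of low depth, with a median of 0.5 of the library median. It had 46 members lower and 2 higher, Rps27l (0.20) and Rpl36al (0.19), against 40.5%, and without library F 20 were lower. The part of depth in these counts was not tested. Cluster 10, used in F and I only, had 43 lower and 2 higher, Rpl10 (0.17) and Rpl36al (0.16), against 50.3%. Cluster 15, led by Car1 and Gata1, was also used in F and I only. It had 5 higher and none lower, Rpl14 (0.23), Rpsa (0.19), Rpl21 (0.19), Rpl10 (0.17) and Rpl13a (0.16), against 24.6%.

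Cluster 1 had a different order of members. There 46 were lower and 7 higher, against 54.0% of all genes called. Rpl3 (-0.77, SE 0.08), Rpl4 (-0.63, SE 0.05), Rps4x (-0.51, SE 0.06), Rpl5 (-0.42), Rpl7 (-0.41), the pseudogene Rpl6l (-0.40), Rps3a1 (-0.34) and Rpl6 (-0.33) fell. Rpl3, which lies near the catalytic centre of the 60S subunit, was at 4693, 4511, 4424 and 4664 CPM in HSPC-like cells of F, I, A and B and at 2807, 2201, 2854 and 3163 CPM in cluster 1. Rps19bp1 (0.46), Rps27l (0.34), Rpl36al (0.34), Rps26 (0.31), Rps21 (0.23), Rpl38 (0.12) and Rplp1 (0.10) rose. Median UMIs per cell in cluster 1 were 15929, 20258, 7771 and 6588. Without library F 25 members were lower and 6 higher.

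Several members are copies of another member, and some of these changed against their parent. Rpl36a is X-linked and Rpl36al is its copy on chromosome 12, and both encode nearly the same 60S protein. The ratio of Rpl36al to Rpl36a UMIs was 0.504, 0.483, 0.536 and 0.568 in HSPC-like cells of F, I, A and B. In monocyte-like cells it was 0.747, 0.779, 0.660 and 0.769, above the HSPC-like ratio in each library. It was 0.683 to 0.753 in cluster 1 and 0.602 to 0.736 in neutrophil-like cells. The parent fell in monocyte-like cells (-0.33, SE 0.05) while the copy rose (0.17, SE 0.03).

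Rps27l is a copy of Rps27 known as a p53 target. Its ratio to Rps27 was 0.652, 0.606, 0.795 and 0.949 in HSPC-like cells of F, I, A and B and 0.844, 0.891, 0.786 and 1.03 in monocyte-like cells. In neutrophil-like cells it was 0.497, 0.537 and 0.781 in F, I and A. The ratio was highest in B within HSPC-like, monocyte-like and cluster 0, 1 and 4 cells, where the short parent Rps27 was low. Rps27rt was at 0.0639 to 0.0765 of Rps27 over whole libraries, at 0.0592 to 0.0698 in HSPC-like cells, at 0.0696 to 0.0805 in monocyte-like cells and at 0.0713 to 0.0834 in neutrophil-like cells. In neutrophil-like against HSPC-like cells Rps27 itself did not pass (0.11, SE 0.07, edgeR adjusted p = 0.158).

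Rpl22 is a 60S protein outside the catalytic core and Rpl22l1 its copy. They were nearly level, with ratios of Rpl22l1 to Rpl22 of 1.01, 1.04, 0.933 and 1.10 in F, I, A and B and of 0.859 to 1.21 over all classes and libraries used. Rpl7l1 was at 0.0271 to 0.0464 of Rpl7. Rpl3l, Rpl10l and Rps4l were not among the genes measured. Rpl10a was at 4474 to 5081 CPM, and Rps27a, made as a fusion with ubiquitin, at 7017 to 7618 CPM.

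**Figure D3:**
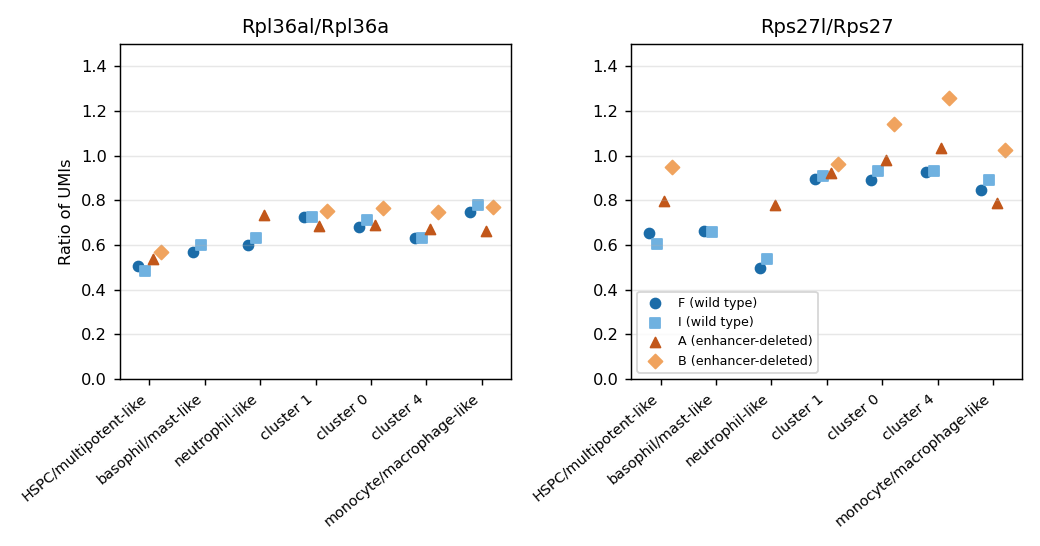
Ratio of UMIs of a copy to its parent gene (vertical axis, from 0) in each class and library with at least 50 cells, for Rpl36al over Rpl36a on the left and Rps27l over Rps27 on the right. In each library the first ratio is lowest in HSPC-like cells among the classes shown, and the second is highest in library B in the classes where B has a point.

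Likeness of pattern was measured over 33 sums of 1 class in 1 library, which share libraries and depth, so the correlations of log2 CPM are descriptions. Over all 3570 pairs of members the median Pearson r was 0.40. The genes most like Rpl36al were Bola2 (0.92), Mrps21 (0.90) and Cox6b1 (0.89), of which none is a member. Those most like Rps27l were Rbx1 (0.91), Hspe1 (0.87) and Slirp (0.86), and those most like Rpl7l1 were Enoph1 (0.80), Atic (0.78) and Mrpl2 (0.78). Rpl22l1 was most like Rbm39 (0.77), Rpl37 (0.76) and Rps15a (0.76). Rps27rt was most like Rpl39 (0.90), Wdr89 (0.88) and Rps12-ps3 (0.88). Rpl39l, near 0 in most sums, was most like Map1lc3b (0.61), Ncaph2 (0.59) and Trappc1 (0.53).

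The parent genes and some other members differed in whether their nearest genes were members. Rps27 was most like Rpl37a (0.98), Rpl39 (0.98) and Rpl37 (0.97), and Rpl36a like Rpl31 (0.96), Rpl37a (0.95) and Rps27 (0.95). Rpl39 was most like Rps27 (0.98), Rpl37a (0.97) and Rps29 (0.95), and Rpl22 was close to Rplp2 (0.94) and Rpl35a (0.93). Rpl3 was most like Eef1a1 (0.96), Rpl4 (0.93) and Eif3e (0.88), and Rpl7 like Gnb2l1 (0.93), Rps3a1 (0.89) and Eef1g (0.88), which include translation factors. Rps4x was most like Rps3 (0.91), Rps3a1 (0.91) and Rps6 (0.88), and Rpl10a was close to Rps3a1 (0.92) and Rps9 (0.91). Rpl10 was most like Gnb2 (0.87), Itm2b (0.86) and Capns1 (0.83), and Rps27a like Rpl11 (0.79), Lst1 (0.78) and Rps25 (0.77).

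Genotypes were then compared within classes. In HSPC-like cells 1 of 84 members tested passed, again Rpl6l (-0.41, SE 0.07, edgeR adjusted p = 0.0401), against 1.40% of 3571 genes. The median was -0.09 and 68 of 84 were negative. Without library A, which leaves B as the enhancer-deleted sample, 40 members were lower. Without library B, 2 were lower. Without F or without I, none passed.

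In monocyte-like cells no member passed edgeR's test, against 6.19% of 3568 genes, and 2 had an unadjusted p under 0.05 (Rpl3 at 0.32, SE 0.12, and Rpl10a at 0.32, SE 0.13). The median was 0.12 and 65 of 85 were positive. Without library A, 11 members were lower, and the DESeq2 Wald test called 0. In cluster 1 Rpl15 (-0.44, SE 0.10, edgeR adjusted p = 0.0191) and Rpl35 (-0.43, SE 0.12, edgeR adjusted p = 0.0376) fell, against 4.54% of genes. Rpl15 was at 948 and 1139 CPM in F and I, against 732 and 826 CPM in A and B there. Without library A, 22 members were lower in cluster 1. In cluster 0 no member passed (3 with an unadjusted p under 0.05, DESeq2 0), against 0.0281% of genes, and in cluster 4 none (9 unadjusted, DESeq2 0), against 0.536%, where 15 were lower without library A.

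The genotype difference itself was not the same in monocyte-like as in HSPC-like cells. This was tested as the interaction of genotype and class with the library as a block, so a level that a library has in both classes drops out. In the joint test over 4 class contrasts 69 of 85 members passed, against 27.5% of 3586 genes. In the monocyte-like contrast 68 members had a positive interaction and none a negative one, against 21.0% of genes (433 positive and 319 negative). The members' median was 0.21 and that of all genes 0.01.

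The largest interactions included those of Rps4x (0.38, SE 0.05, edgeR adjusted p = 8.1e-07), Rpl3 (0.36, SE 0.07, edgeR adjusted p = 0.000174), Rpl39 (0.33), Rps27 (0.31), Rps24 (0.30), Rpl26 (0.29) and Rpl23a (0.28). Rps4x, an X-linked 40S protein, was at 7581, 7021, 6804 and 7149 CPM in HSPC-like cells of F, I, A and B, and at 5796, 5186, 6404 and 6487 CPM in monocyte-like cells. Its level in monocyte-like cells was thus lower than in HSPC-like cells in all 4 libraries, by less in A and B. Rpl3 was at 3803, 3691, 4455 and 4533 CPM in monocyte-like cells, with A and B above both wild-type libraries. For both genes the HSPC-like levels of the genotypes differed less than the monocyte-like levels.

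The 17 members that did not pass included Rpl7a, Rps21, Rpl5, Rpl6l, Rpl41, Rps27l, Rps27rt, Rpl27, Rpl38, Rpl36al, Rpl30, Rps19bp1, Rpl39l, Rps2, Rpl7l1 and Rpl36. Of these Rps27l (-0.11), Rps19bp1 (-0.23) and Rpl7l1 (-0.24) were negative and Rpl36al was at 0.00. By role, 28 of 31 40S members and 39 of 46 60S members passed, with medians of 0.22 and 0.21, as did all 3 stalk proteins and 18 of 20 Diamond-Blackfan and 5q- genes.

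**Figure D4:**
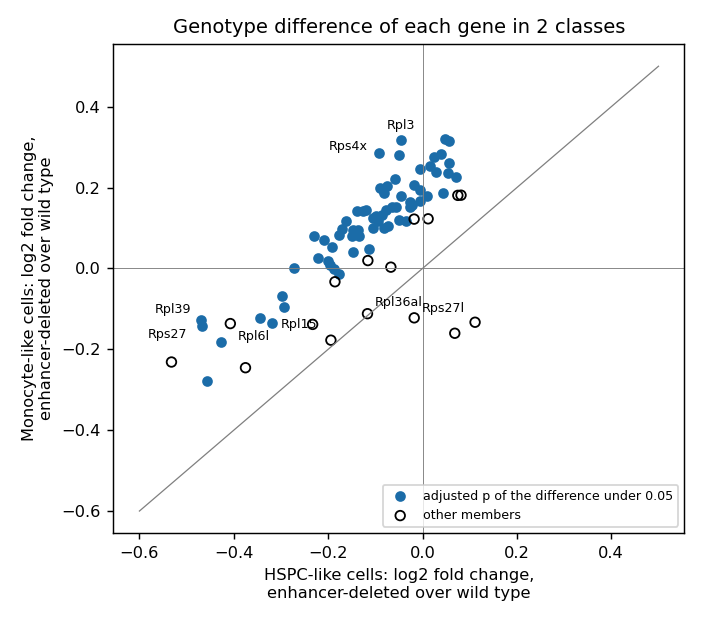
Log2 fold change of enhancer-deleted over wild-type libraries in monocyte-like cells (vertical axis) against that in HSPC-like cells (horizontal axis), 1 point per member tested in both, without Rpl39l; filled points passed the test of the difference and the line marks equal values. Nearly all points lie above the line, with Rps27 and Rpl39 toward the lower left.

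The shares showed the same difference. Monocyte-like minus HSPC-like share was -5.47 and -6.33 percentage points in F and I, against -2.39 and -2.46 in A and B. The groups did not overlap, and the difference between genotypes was 3.47 points (exact two-sided permutation p = 0.333, the smallest possible). In cells thinned to 4346 UMIs each it was 3.67, from -5.46, -6.79, -2.44 and -2.48.

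The clusters within the monocyte-like class held different parts of it in the genotypes. Cluster 12, led by C1galt1c1 and Ly6c2, had 107, 95, 37 and 16 cells in F, I, A and B. Cluster 8 had 87, 52, 315 and 275 cells, and cluster 9 had 141, 112, 171 and 244. In cluster 8 alone the share minus that of HSPC-like cells was -2.85, -3.08, -0.39 and -0.05 points in F, I, A and B, and in cluster 9 alone -6.03, -7.01, -4.59 and -4.31. Neither overlapped between genotypes. Gene by gene, 51 members had a positive and 1 (Rps27l, -0.28) a negative interaction in cluster 8, against 14.1% of genes called. In cluster 9 there were 21, all positive, against 5.26%. Both fits were added after the data had been seen.

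Markers of other cell types moved with this result in part. The 14 neutrophil markers measured summed to 11673 and 12366 CPM in monocyte-like cells of F and I, against 5902 and 5719 CPM in A and B, with 1 to 2 of them at 0. In HSPC-like cells they summed to 2434 and 2293 CPM in F and I, against 1639 and 1727 CPM in A and B, with 0 to 3 at 0, so the genotypes were apart in the reference class too. Within the monocyte-like class the neutrophil sums were highest in cluster 12, at 20714, 21203, 14645 and 13835 CPM in F, I, A and B. This cluster held more cells in F and I than in A and B. In cluster 9 they were 7030, 7014, 6156 and 6315 CPM. In cluster 8 the neutrophil sums were 3993 to 4295 CPM with 1 to 4 at 0. The shares minus those of HSPC-like cells did not overlap there either. The cluster 8 shares themselves did overlap, at 36.8%, 36.1%, 39.0% and 36.4% in F, I, A and B. So did those of cluster 9, at 33.6%, 32.1%, 34.8% and 32.2%, and those of the whole monocyte-like class, at 34.2%, 32.8%, 37.0% and 34.0%. With these markers left out of the total the difference between genotypes was 3.30 points. This step changes only the total, so it cannot tell whether the cells themselves differed in state. The 10 HSPC markers summed to 52.3 and 41.7 CPM in monocyte-like cells of F and I, against 102 and 108 CPM in A and B, and in cluster 8 to 60.1, 30.8, 128 and 152 CPM. The 13 erythroid markers summed to 96.5, 121, 44.2 and 72.4 CPM in monocyte-like cells of F, I, A and B, and to 293, 331, 382 and 415 CPM in HSPC-like cells, with 1 to 5 at 0. The part in the result of the cell states that the neutrophil, HSPC and erythroid markers stand for was not tested. Leaving out 1 library gave 40 (without A) to 72 (without F) members with an interaction.

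**Figure D5:**
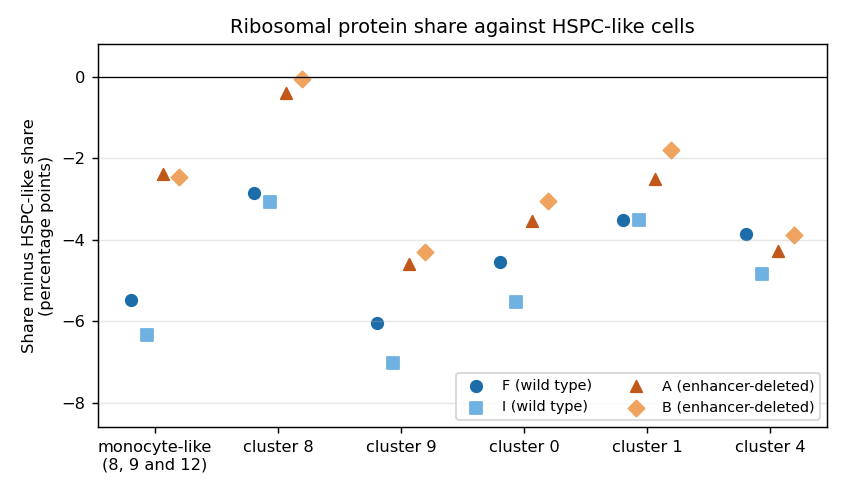
Share of UMIs on ribosomal protein genes in a class or cluster minus that in HSPC-like cells of the same library (vertical axis, percentage points); each point is 1 library. In monocyte-like cells and in clusters 8, 9, 0 and 1 both enhancer-deleted libraries lie above both wild-type libraries, and in cluster 4 they overlap.

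In cluster 1 the interaction was positive for 29 members, against 21.2% of genes, with Rps26 (0.44), Rps27 (0.33), Rpl39 (0.32), Rpl3 (0.31), Rps12 (0.25), Rps21 (0.24), Rpl29 (0.22) and Rplp1 (0.22) leading, and without library B 4 members passed. In cluster 0 it was positive for Rpl39 (0.21), Rps24 (0.19) and Rps4x (0.18), against 1.34% of genes, and for 0 to 19 members with 1 library left out. In cluster 4 no member passed edgeR's test (3 with an unadjusted p under 0.05, DESeq2 0), against 1.14%. Whether the interactions of these clusters differ from that of monocyte-like cells was not tested.

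Genes next to the members in protein synthesis were read from lists in the same interaction, where 21.0% of all genes were called (433 positive and 319 negative). Of the cytosolic ribosomal genes with other symbols, Fau (0.19) and Gnb2l1 (0.21), the 40S protein RACK1, passed in the monocyte-like interaction. Of 41 elongation and initiation factors 10 were positive, among them Eef1a1 (0.53) and Eef2 (0.57), and 8 negative, among them Eif2s1 (-0.45). Of 51 ribosome biogenesis genes none was positive and 14 were negative, with Ncl (-0.34), Mrto4 (-0.41) and Ebna1bp2 (-0.42). Of 73 mitochondrial ribosomal protein genes 2 were positive and 21 negative, with a median of -0.16. The biogenesis list also holds transcription factors and subunits of RNA polymerase, such as Myc and Polr1c, which did not pass in this interaction. Whether any of these lists differs from all genes was not tested.

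The same lists in monocyte-like against HSPC-like cells gave 32 of 51 biogenesis genes lower and none higher, 6 higher and 15 lower of 41 translation factors, and 26 higher and 14 lower of 73 mitochondrial ribosomal genes, where 65.3% of all genes were called. None of the 3 lists was called more often than all genes there. Mycn, counted among the lower biogenesis genes, is also one of the markers that named the HSPC-like clusters, so its fall followed from the naming. Over all cells none of these 3 lists had a member past the threshold between genotypes. Within HSPC-like cells 1 biogenesis gene was lower, Myc (-0.44), against 1.40% of all genes called. Within monocyte-like cells 1 biogenesis gene was lower, Ddx18 (-0.52), against 6.19%. Of the translation factors there, Eef2 (0.51) and Eif3e (0.34) were higher and Eef1e1 (-0.50) was lower. No mitochondrial ribosomal gene passed in either class. Of 15 listed p53 targets 4 were measured, and none passed between genotypes over all cells (median 0.14). S phase and G2/M lists, as a measure of cycling, had 0 of 17 and 0 of 18 genes called over all cells. In the monocyte-like interaction 4 S phase genes were positive, and 1 G2/M gene was positive and 7 negative, and their part in the result was not tested.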

How the data were processed

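The authors deposited 1 table of UMI counts, whole numbers per gene and cell with no normalization, and a table that gives each cell's library. Reads were processed with Cell Ranger 2.0.2 and Seurat 2.3.4 on mm10, per the submitters' processing notes. The count table has no cell names, so its columns were matched to the grouping table by position. No other column of per-sample values was present (0). Doublet removal is not given in the sources used here, and no doublet caller was run.

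Cells were clustered without the 85 members (scanpy 1.11.5, python-igraph 0.11.9, python 3.11.15, numpy 2.4.6): each cell was scaled to 10000, then 1000 variable genes, 30 principal components, 15 neighbours and Leiden at resolution 1.0. Clusters were named from marker lists, which needed at least 3 markers. Counts were summed per library and class where a class held at least 50 cells. Sums were tested with edgeR 4.0.16 (quasi-likelihood, TMM, filterByExpr, limma 3.58.1, R 4.3.3), with the library as a factor in class and interaction fits and Benjamini-Hochberg adjusted p over all genes tested at 0.05. DESeq2 1.42.0 was an alternative. Scripts were tested on simulated data. Total UMIs per library limit the precision of low members such as Rpl39l.

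The members and lists were chosen with earlier results of these data known. Named genes were the members past the threshold with the largest changes (up to 8 in each direction), the highest and lowest members, the paralog pairs and the genes most like them. Stalk, 5S particle, Diamond-Blackfan and list genes were named for their role, and Rps19, Rps14, Rpl38 and the list genes shown were chosen after their values were seen. Alternatives were another normalization, no filter, DESeq2, normalization without the members, clustering at resolution 0.6, thinning, an equal mix of classes and each library left out. Some members and other genes of the lists are not reported here by name.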

Additional observations from a re-analysis of the deposited data

Results flagged for a closer look

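The difference between genotypes was not the same in all classes, by the interaction test of edgeR. It held for 69 members in the joint test over 4 class contrasts, where 27.5% of all genes were called. Against HSPC-like cells it held for 68 members in monocyte-like cells, where 21.0% of all genes were called. It held for 29 members in cluster 1 (21.2% of all genes called) and 3 in cluster 0 (1.34%). The clusters within the monocyte-like class differed in cell numbers between genotypes, as given above. The log2 interactions of leading members in monocyte-like cells were 0.38 for Rps4x, 0.36 for Rpl3, 0.33 for Rpl39, 0.31 for Rps27, 0.30 for Rps24, 0.29 for Rpl26 and 0.28 for Rpl23a.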

How the results depend on the processing

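Single values were followed through the alternatives for 112 values of members, not for every member in every comparison. Of these, 830 alternative values kept direction and side of the threshold, 93 kept the direction only and 0 turned. The members' median between genotypes over all cells did turn without library B, as given above. The genotype difference in summed share turned without library B (0.71 points) and ranged from -1.99 to 0.71 with 1 library left out. Counts of members called between genotypes with 1 library left out ranged from 0 to 2 over all cells, 0 to 40 in HSPC-like cells, 0 to 11 in monocyte-like cells, 0 to 22 in cluster 1 and 0 to 15 in cluster 4. Against HSPC-like cells they ranged from 42 to 69 in monocyte-like cells, 6 to 25 in neutrophil-like cells, 1 to 2 in basophil/mast-like cells, 31 to 51 in cluster 1, 20 to 29 in cluster 6 (28 without I and 28 without B) and 2 to 4 in cluster 15. Interaction counts ranged from 44 to 72 jointly, 40 to 72 in monocyte-like cells, 4 to 25 in cluster 1 (12 without I and 16 without A) and 0 to 19 in cluster 0. The DESeq2 Wald test gave 5 members over all cells, 1 in cluster 1, 8 in cluster 15 against HSPC-like cells and 6 for the cluster 0 interaction. That interaction gave 0 with DESeq2 size factors and 0 with no filter. An equal mix of classes gave 0 over all cells. Cluster 9 alone gave 21 in the interaction, an alternative chosen after seeing the data. The cause of these changes was not tested. With a library left out, an arm of 1 library is assumed to vary like the other. No paired analysis was possible because the library letters carry no replicate number.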
